A study of Mus musculus with 6 samples.

Results

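The mouse genes Ms4a4b, Ms4a4c, Ms4a4d, Ms4a6b, Ms4a6c, Ms4a6d, Ms4a7 and Ms4a8a were followed in macrophages that lacked E-FABP, a lipid carrier of the cytosol that Fabp5 encodes. They are 8 of the 18193 genes with a probe set of their own on the array, and 15 probe sets carried their names. The 8 were chosen because of their values in knockout against wild type on these same arrays, so that contrast is described for them and not tested. The E-FABP knockout group held 3 arrays and the wild type group held 3 arrays, and both genotypes are labelled as C57BL/6 mice of 6 to 8 weeks. Every culture was bone marrow grown for 7 days with the growth factor GM-CSF at 20 ng/ml and then co-cultured for 18 h, in a 12-well plate, with an insert of E0771 cells, which are murine mammary tumour cells. All 6 arrays therefore share the exposure to tumour cells, and the effect of that exposure was not analysed here. Replicates are labelled as biological, without a statement that each came from its own animal, and p-values speak of these samples only. Such GM-CSF cultures are mixtures of macrophages and cells with dendritic cell features, and RNA came from the whole culture.

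The MS4A proteins cross the cell membrane several times and are best known from CD20 (Ms4a1), the B cell antigen, and from the beta chain of the high-affinity IgE receptor (Ms4a2). Other members are expressed in monocytes, macrophages and T cells, where they sit beside signalling receptors and alter their traffic or signal strength. The genes form a cluster of tandem copies, and several of the Ms4a4 and Ms4a6 genes in the mouse are close duplicates. Type I interferon, the antiviral cytokine family that includes interferon beta, is known to raise a number of them in myeloid cells.

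The relatedness of some of the genes is visible in their promoters. The 4 printed below are shown because they form the 2 pairs with the longest shared runs of bases among the windows of the members. RefSeq promoter windows of 300 bases, from 250 before to 50 after the annotated transcript start, were found for 7 of the 8 genes, all but Ms4a6d. The windows come from mouse build GRCm38.p6, and the printed ones lie on the plus strand of chromosome 19, at chr19:11518309-11518608 for Ms4a6b, chr19:11469118-11469417 for Ms4a6c, chr19:11443308-11443607 for Ms4a4b and chr19:11407411-11407710 for Ms4a4c. Capitals mark runs of at least 12 bases that are identical, in the same orientation, in the other window of the pair.
Ms4a6b: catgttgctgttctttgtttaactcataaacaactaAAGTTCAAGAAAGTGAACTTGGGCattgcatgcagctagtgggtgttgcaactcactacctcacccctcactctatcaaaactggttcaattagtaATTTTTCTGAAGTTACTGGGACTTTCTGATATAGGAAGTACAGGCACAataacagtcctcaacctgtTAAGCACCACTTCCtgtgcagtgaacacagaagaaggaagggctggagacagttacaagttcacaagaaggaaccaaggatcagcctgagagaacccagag
Ms4a6c: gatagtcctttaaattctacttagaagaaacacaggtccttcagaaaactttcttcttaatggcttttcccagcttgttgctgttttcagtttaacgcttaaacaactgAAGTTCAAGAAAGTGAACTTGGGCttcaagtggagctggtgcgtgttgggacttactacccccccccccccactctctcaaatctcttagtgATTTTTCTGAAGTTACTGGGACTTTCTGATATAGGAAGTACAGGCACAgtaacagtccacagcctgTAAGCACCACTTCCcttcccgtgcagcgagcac
Ms4a4b: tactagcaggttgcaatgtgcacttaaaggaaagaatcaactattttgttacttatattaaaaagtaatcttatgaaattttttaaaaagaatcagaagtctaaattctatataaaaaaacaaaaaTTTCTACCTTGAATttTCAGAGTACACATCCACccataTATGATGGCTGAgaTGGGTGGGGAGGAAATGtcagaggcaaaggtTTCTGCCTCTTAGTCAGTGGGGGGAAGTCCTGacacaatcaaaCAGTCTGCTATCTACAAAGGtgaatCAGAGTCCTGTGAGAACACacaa
Ms4a4c: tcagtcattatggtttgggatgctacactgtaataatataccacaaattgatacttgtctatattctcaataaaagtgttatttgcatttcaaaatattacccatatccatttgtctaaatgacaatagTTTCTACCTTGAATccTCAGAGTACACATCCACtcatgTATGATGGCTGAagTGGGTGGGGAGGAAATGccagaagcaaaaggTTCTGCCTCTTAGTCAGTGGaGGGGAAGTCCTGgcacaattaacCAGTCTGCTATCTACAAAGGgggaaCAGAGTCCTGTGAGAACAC

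The windows of Ms4a6b and Ms4a6c shared a run of 48 identical bases, and runs of at least 12 bases covered 86 bases of each. In the windows of Ms4a4b and Ms4a4c the longest run was 20 bases, and such runs covered 131 bases of each. Over the other pairs among the 8 windows (Ms4a7 has 2 annotated starts), the longest shared run was 7 to 13 bases. That these are shorter follows from the choice of the printed pairs. Within each of these 2 pairs the windows therefore share stretches of sequence, and across the 2 pairs the longest runs were 7 to 9 bases. The stretches did not lie at the same distance from the start in Ms4a6b and Ms4a6c. The last one ended at position -38 from the start in Ms4a6b and at position 30 in Ms4a6c. The likeness did not extend to Ms4a4d. Its longest run was 9 bases with Ms4a4b and with Ms4a4c, and 13 with Ms4a6b.

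**Figure D1:**
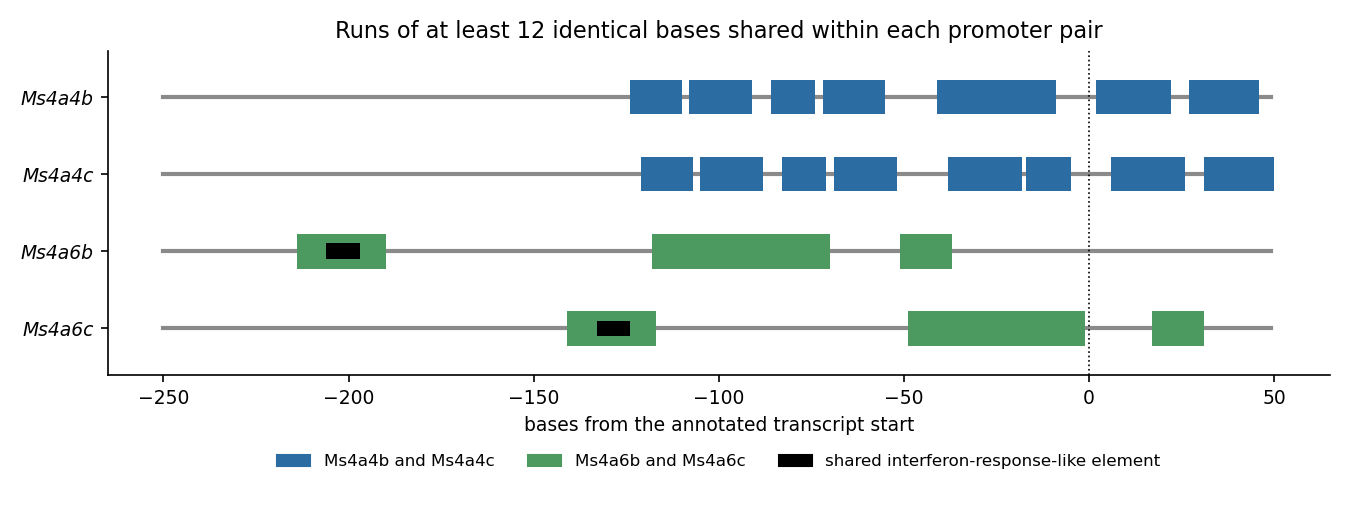
Promoter windows of Ms4a4b, Ms4a4c, Ms4a6b and Ms4a6c by distance in bases from the annotated transcript start (0). Coloured boxes are runs of at least 12 bases identical within the pair, and black boxes are the motif match that Ms4a6b and Ms4a6c share; the runs lie nearer the start in Ms4a6c than in Ms4a6b.

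Short motifs were searched on both strands as a description of these letters only. The interferon-stimulated response element, bound by the interferon-regulated factors IRF and ISGF3, was found in 0 of the 8 windows, against 3.44% of 32851 mouse promoter windows of the same length. The STAT site TTCNNNGAA (8.3% of all windows), the composite ETS and IRF site (2.72%) and the PU.1 site GAGGAAGT (3.2%) were likewise in 0 of the 8. The response element and the composite site overlap in most of their letters, and the lack of a match in a window of this length says nothing about the factor. After the sequences had been seen, GAAANNGAA, the response element as searched here without its closing A, was searched as well. It was in 4 of the 8 windows, against 8.56% of all windows. These were the windows of Ms4a6b and Ms4a6c, where it lay in a shared run, and both of the single gene Ms4a7. These 4 are therefore not independent matches. The full response element was in the window of Ms4a18, a family gene outside the 8 (difference 0.11). In Ms4a6b and Ms4a6c the letters were GAAAGTGAA, inside the first capital run, beginning 206 bases before the start in Ms4a6b and 133 bases before it in Ms4a6c. These 9 letters are held by 0.581% of all windows. They were read from these same windows, so nothing is drawn from that share.

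The knockout and the cell type were checked first. The brighter of 2 Fabp5 probe sets had a log2 intensity of 14.44 ± 0.03 in wild type and 8.27 ± 0.13 in knockout (SD, n = 3 each; difference -6.17, limma adjusted p = 1.96e-09). The mean log2 level of 8 macrophage markers, among them Csf1r, Cd68, Adgre1 and Lyz2, ranged from 12.10 to 12.29 in knockout and from 12.39 to 12.47 in wild type. All 8 lay above 5.63, the median of all values on the arrays. Of these, the Fc receptor gene Fcgr1 (-1.13) and the engulfment receptor gene Mertk (-0.46) were lower in knockout (limma adjusted p = 0.0227 and 0.0234).

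All 8 Ms4a genes had a lower mean in knockout, and the 5 members with the widest gaps were Ms4a4c, Ms4a6b, Ms4a4b, Ms4a6c and Ms4a6d. With the brightest probe set standing for each gene, the median difference was -1.13 on the log2 scale, where the median over all 18193 genes was 0.01. In 7 of the 8 the 3 knockout values lay under the 3 wild-type values, which held for 11.2% of all genes, and 0 had the opposite separation, which held for 20.7%. Those 5 genes were also past the threshold of the fit over the whole table (adjusted p under 0.05), a call that 2.05% of all genes received in the lower direction. Nothing is read from these counts, since the genes were chosen on this contrast. Leaving out knockout replicate 1 or wild-type replicate 2 left 0 of them past the threshold, leaving out wild-type replicate 1 left 1, and leaving out wild-type replicate 3 left 3. On bulk RNA, fewer cells that express a gene and less of its RNA in each cell cannot be told apart. In the values that follow, arrays stand in the order of replicates 1, 2 and 3.

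**Figure D2:**
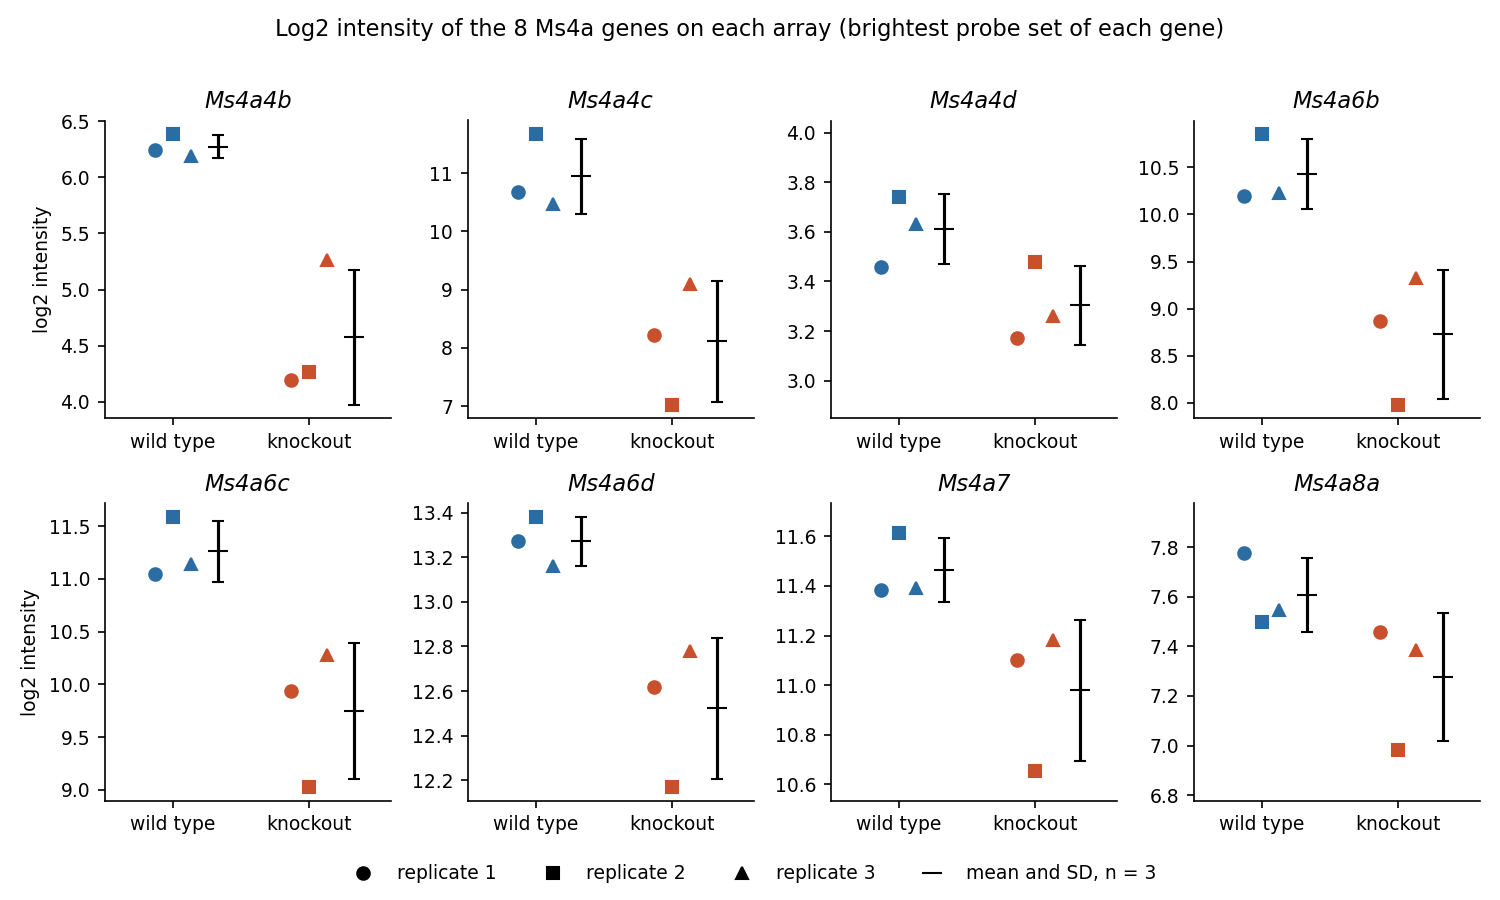
Log2 intensity of the brightest probe set of each of the 8 Ms4a genes on the 6 arrays, with symbols for replicates and bars for mean ± SD (n = 3); each panel has its own axis. Knockout and wild-type values overlap in Ms4a4d alone, and knockout replicate 2 is the lowest array in 6 panels.

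Ms4a4c, which is often listed among the genes of inflammatory monocytes, had the widest gap. Its log2 intensity was 8.23, 7.03 and 9.09 in the knockout cultures and 10.68, 11.67 and 10.47 in the wild-type cultures. The genotypes were separate, and the highest knockout value stayed more than 1 log2 unit under the lowest wild-type value. The means were 8.12 ± 1.04 (SD, n = 3) and 10.94 ± 0.64 (n = 3), a difference of -2.83 (limma SE 0.47), or 7.09-fold. A further probe set gave 8.13, 5.98 and 9.08 in knockout and 10.78, 11.60 and 10.56 in wild type, a difference of -3.25 (SE 0.65). Both probe sets carry a suffix by which Affymetrix marks probes that can also match related transcripts, so signal from its duplicates could be part of these values; this was not tested.

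Ms4a4b, known in T cells, where its protein associates with the receptor GITR, read 4.19, 4.27 and 5.27 in knockout. In wild type it read 6.24, 6.38 and 6.19. The wild-type arrays lay close together, and knockout replicate 3 stood above the other two knockout arrays without reaching the wild-type values. The difference was -1.70 (SE 0.24), or 3.24-fold, from 6.27 ± 0.10 to 4.57 ± 0.60 (SD, n = 3 each). All knockout values were under the median of all values, 5.63, and no detection call was used here. The gene's dimmer probe set lay between 3.67 and 4.20 on all arrays and its genotypes overlapped (difference -0.28, SE 0.11). T cell markers were read beside this gene. Of 9 measured ones, among them Cd3d, Cd3e, Cd3g and Cd2, 0 passed limma's threshold in either direction and 0 had an unadjusted p under 0.05. Their mean level was 4.83 to 4.90 in knockout and 4.89 to 4.96 in wild type, and 7 of the 9 were under the median of all values. The mean was lower in knockout for 7 of the 9. In 2 all knockout values lay under all wild-type values (11.2% of all genes), and 0 had the opposite separation (20.7%). Whether T cells had a part in the Ms4a4b values was not tested.

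Ms4a4d read 3.17, 3.48 and 3.26 on the knockout arrays and 3.46, 3.74 and 3.63 on the wild-type arrays. These values are far under the median of all values, the genotypes overlapped, and the difference was -0.31 (SE 0.10). Within the Ms4a4 group the wide gaps were thus those of Ms4a4c and Ms4a4b, the pair with the shared promoter stretches printed above.

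The 3 Ms4a6 genes differed in brightness and in the size of the gap. Ms4a6b read 8.87, 7.98 and 9.32 in knockout and 10.19, 10.86 and 10.23 in wild type. The difference was -1.70 (SE 0.31), or 3.25-fold, from 10.43 ± 0.37 to 8.72 ± 0.68 (SD, n = 3 each). Its other probe set gave a wider gap, with 6.26, 5.08 and 6.94 against 8.08, 8.65 and 8.09 (difference -2.18, SE 0.39). Neither probe set showed any overlap between genotypes.

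Ms4a6c, a gene that also appears among monocyte genes, read 9.93, 9.02 and 10.28 on the knockout arrays and 11.05, 11.59 and 11.15 on the wild-type arrays. Its order of arrays within the knockout group was that of Ms4a6b. The difference was -1.52 (SE 0.28), or 2.86-fold, from 11.26 ± 0.29 to 9.74 ± 0.65 (SD, n = 3 each). A dim probe set of the gene, at 5.23 to 5.44 in knockout and 5.58 to 5.79 in wild type, differed by -0.32 (SE 0.08).

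Ms4a6d read 12.62, 12.17 and 12.78 on the knockout arrays and 13.27, 13.38 and 13.16 on the wild-type arrays. The gap was narrower than in its relatives, at -0.75 (SE 0.14) or 1.68-fold, from 13.27 ± 0.11 to 12.52 ± 0.32 (SD, n = 3 each). A probe set without the suffix for related transcripts gave nearly the same difference, -0.71 (SE 0.14). A dim probe set of Ms4a6d stayed between 2.80 and 2.99 on all 6 arrays, with a difference of -0.07 (SE 0.07).

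Ms4a7, a gene of mature and tissue-resident macrophages, read 11.10, 10.66 and 11.18 on the knockout arrays and 11.38, 11.61 and 11.39 on the wild-type arrays. The genotypes did not overlap, but the highest knockout and the lowest wild-type value were close. The difference was -0.48 (SE 0.13), or 1.40-fold, from 11.46 ± 0.13 to 10.98 ± 0.28 (SD, n = 3 each), and a second probe set gave -0.56 (SE 0.13). Ms4a8a, described as a marker of alternatively activated and tumour-associated macrophages, read 7.46, 6.98 and 7.39 in knockout and 7.78, 7.50 and 7.55 in wild type. Its knockout replicate 1 lay just under wild-type replicate 2, and the difference was -0.33 (SE 0.13), or 1.26-fold. Without knockout replicate 2 the difference of Ms4a8a was -0.18 and that of Ms4a7 was -0.32.

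The 15 probe sets together show where a gene's reading depends on the probes. Of these, 15 had a lower mean in knockout, 12 were without overlap (11.1% of all probe sets in that direction) and 8 were past the threshold (1.7% of all in that direction, 3.75% in either). The 5 probe sets under the median of all values had the narrow differences, apart from the brighter one of Ms4a4b. Where a gene had 2 probe sets above that median (Ms4a4c, Ms4a6b, Ms4a6d and Ms4a7), they gave the same direction and similar sizes.

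**Figure D3:**
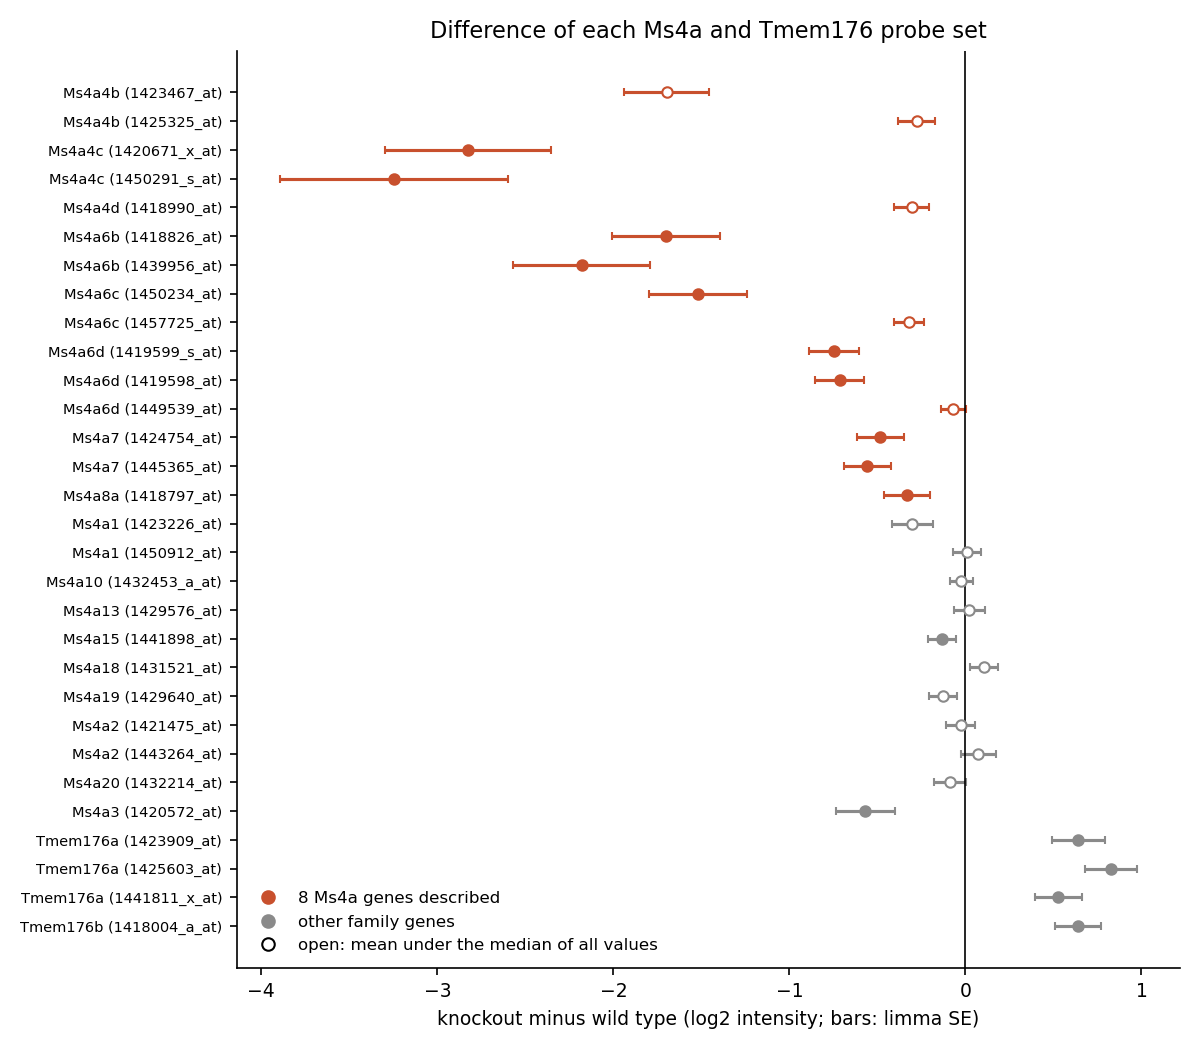
Difference in log2 intensity, knockout minus wild type, with limma's SE for each probe set of the 8 Ms4a genes (red) and of the other family genes (grey); open circles have a mean under the median of all values. The red points run from -3.25 to -0.07, and the Tmem176 points lie on the other side of 0.

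Among the other family genes 1 was past the threshold, in the higher direction. Of 15 listed, 11 were measured, and 7 of these lay under the median of all values. Tmem176b, a related membrane protein of dendritic cells and macrophages, was higher in knockout, at 10.20 ± 0.26 against 9.56 ± 0.16 (SD, n = 3 each; difference 0.64, SE 0.13, limma adjusted p = 0.036). The unadjusted p was under 0.05 for 2 higher and 2 lower genes. The share of all genes under that unadjusted limit was not counted, for this or any other list. Tmem176b was the 1 of the 11 past the threshold (2.85% of all genes were called higher), and 0 were called lower. Its neighbour in sequence, Tmem176a, differed by 0.64 (SE 0.15), with a limma adjusted p of 0.0537, and its knockout values of 10.01, 10.40 and 9.91 lay above the wild-type values of 9.19, 9.50 and 9.70. A dimmer probe set of Tmem176a was past the threshold (difference 0.83, SE 0.15, limma adjusted p = 0.0251). Without knockout replicate 1 or 2, or without wild-type replicate 1 or 2, Tmem176b was no longer past the threshold (limma adjusted p of 0.0948, 0.0802, 0.0965 and 0.122). Ms4a3, a gene of granulocyte and monocyte progenitors, differed by -0.57 (SE 0.17, limma adjusted p = 0.0959). Ms4a1 (CD20) differed by -0.30 at levels under 5 in both genotypes (limma adjusted p = 0.19).

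In chromosomal order, Ms4a4c, Ms4a4b and Ms4a6c stood side by side, Gm8369 lay between Ms4a6c and Ms4a6b, and the narrow gap of Ms4a4d lay between those of Ms4a6b and Ms4a6d. Along chromosome 19 the RefSeq table places Ms4a7, Ms4a4a, Ms4a4c, Ms4a4b, Ms4a6c, Ms4a6b, Ms4a4d, Ms4a6d, Ms4a2 and Ms4a3 in this order among the Ms4a genes, and Ms4a4a was not analysed here. Ms4a8a lies apart, beyond Ms4a1 and Ms4a13. The predicted gene Gm8369 was lower in knockout, at 3.50 ± 0.11 against 4.12 ± 0.26 (SD, n = 3 each; difference -0.62, SE 0.12, limma adjusted p = 0.0325), with both means under the median of all values. With values floored at their 20th percentile, 4.07, its difference was -0.12 (limma adjusted p = 0.486). Outside the Ms4a genes, 45 genes were measured within 1 Mb on either side of the cluster; 1 was higher (2.85% of all genes were), 3 were lower (2.05% of all genes were) and 41 did not pass limma's threshold. The unadjusted p was under 0.05 for 8 higher and 7 lower neighbours, without a share of all genes to set beside it. The median difference of the 45 was -0.01. The other two lower genes were the membrane fusion gene Stx3 (-0.30, SE 0.06) and the endolysosomal peptide transporter gene Slc15a3 (-0.31, SE 0.07), and the higher one was the fatty acid desaturase gene Fads1 (0.48, SE 0.08). Gm8369, Stx3 and Slc15a3 each lost the call without any one of the 6 arrays, and Fads1 without knockout replicate 1 or 2 or wild-type replicate 2 (limma adjusted p of 0.0546 to 0.138 for all 4 genes). With probe sets averaged per gene, Fads1 differed by 0.22 (limma adjusted p = 0.184) and Stx3 by -0.30 (limma adjusted p = 0.0793). Ms4a2, the direct neighbour of Ms4a6d, differed by -0.03 (limma adjusted p = 0.895).

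**Figure D4:**
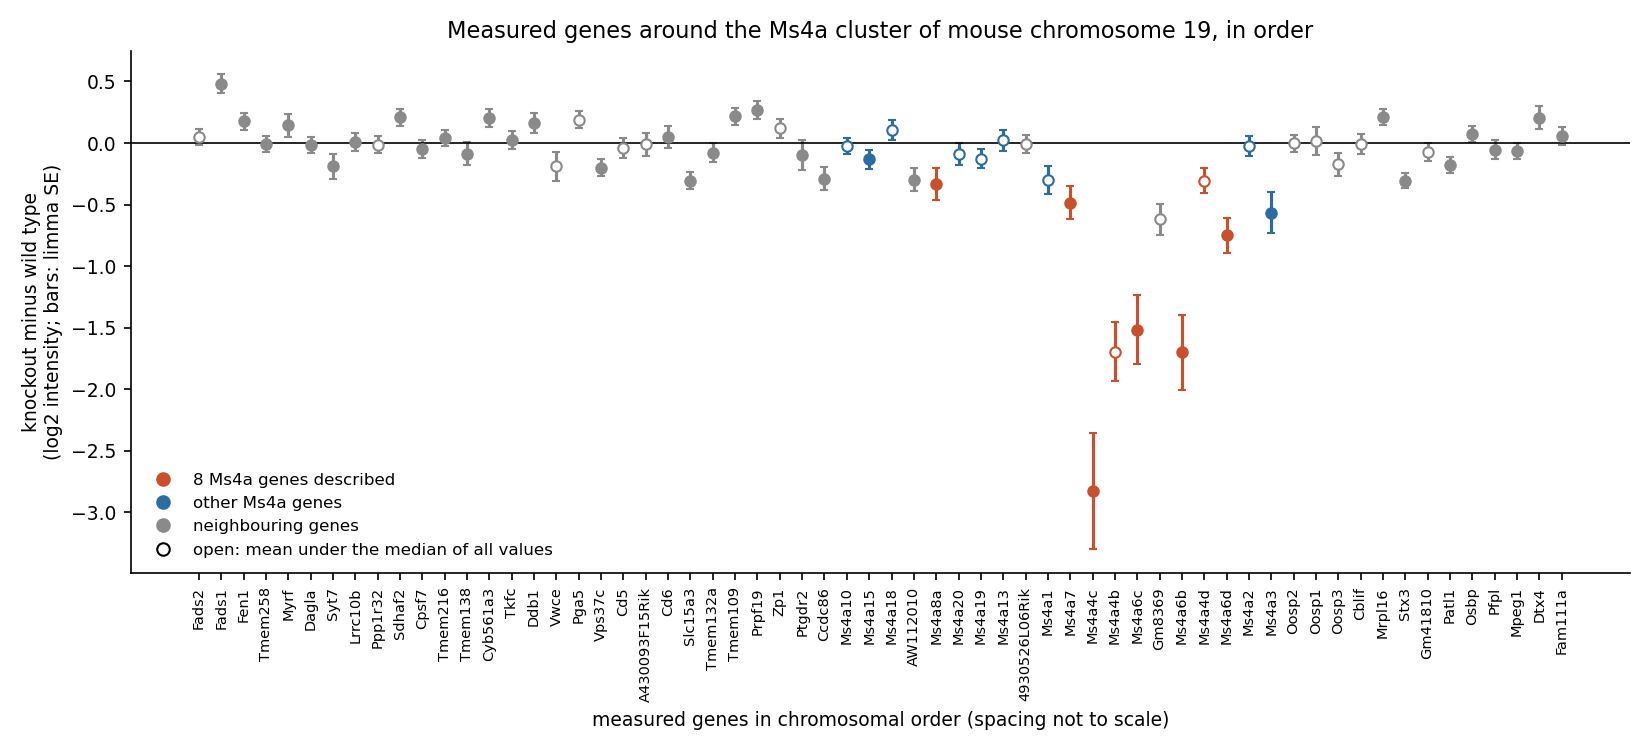
Knockout minus wild type (log2, with limma's SE) for the measured genes around the Ms4a cluster, in chromosomal order with spacing not to scale. The 8 Ms4a genes are red, other Ms4a genes blue and neighbours grey; Ms4a4c, Ms4a4b, Ms4a6c and Ms4a6b, at -1.52 to -2.83, stand under all other genes shown.

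Interferon genes were lower on the same arrays. Of 30 listed genes of type I interferon, its receptor, its signalling chain and its targets, 27 were measured, with a median difference of -1.20. Of these, 22 were lower (2.05% of all genes were), 0 were higher (2.85% were) and 5 did not pass limma's threshold. The list was chosen with earlier results of these data known, so its counts are given as description. The unadjusted p was under 0.05 in 24 lower genes and 1 higher gene. The smallest p-values were those of Ifnb1, the gene of interferon beta (-1.43, SE 0.17), Oasl1 (-2.36, SE 0.31), the signal transducer gene Stat2 (-1.27, SE 0.17) and the antiviral GTPase gene Mx1 (-2.13, SE 0.31), with limma adjusted p between 0.0136 and 0.0177. With knockout replicate 1 left out 0 were lower, and with wild-type replicate 2, 1 or 3 left out the numbers were 1, 7 and 12. Limma's trend and robust settings called 7 lower and 1 higher.

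Within a genotype the Ms4a genes ranked the arrays much alike. Ms4a4c, Ms4a6b, Ms4a6c, Ms4a6d and Ms4a7 all had knockout replicate 2 lowest and replicate 3 highest among the knockout arrays, and replicate 2 highest among the wild-type arrays. This combination was seen in 8.55% of the 11285 genes above the median of all values. Knockout replicate 2 was the lowest array for 6 of the 8 genes (31.8% of those 11285), and wild-type replicate 2 was the highest for 7 of the 8 (33.6%). The 8 include Ms4a4b and Ms4a4d, whose means lie under that median, so these shares come from brighter genes than those 2. Ms4a8a was the exception in wild type, where replicate 2 was its lowest array. In knockout Ms4a4b, lowest on replicate 1, Ms4a4d, highest on replicate 2, and Ms4a8a, highest on replicate 1, departed from the common order.

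After each gene's mean over the 6 arrays was subtracted, the 8 genes averaged -0.56, -1.06 and -0.18 in knockout and 0.50, 0.84 and 0.47 in wild type. The 27 interferon response genes averaged -0.59, -1.19 and -0.17 in knockout and 0.56, 0.89 and 0.51 in wild type. Both sets thus put the 6 arrays in the same order. They share the arrays, and no test was made of this. For the 8 genes, knockout arrays under wild-type arrays follow from their choice, so only the order within a genotype is left to read. In wild type the averages of replicates 1 and 3 were close in both sets. Of the 8 genes, 3 were lowest on wild-type replicate 3 and 4 on wild-type replicate 1. The knockout order of replicates 2, 1 and 3, from low to high, was also that of the macrophage markers (-0.10, -0.21 and -0.03 on replicates 1, 2 and 3), the neutrophil markers (-0.23, -0.64 and 0.0029) and the monocyte markers (-0.18, -0.63 and 0.22). Not all lists had this order. It was reversed in the dendritic cell markers (0.09, 0.30 and 0.01) and in the genes of known MS4A partners (0.11, 0.15 and 0.05). The spread among knockout arrays was wider than among wild-type arrays in 7 of the 8 genes above by a ratio of SDs over 1.5. It ran from 1.62 in Ms4a4c to 5.98 in Ms4a4b, and the ratio was 1.12 in Ms4a4d. In their further probe sets the ratio was 2.61 to 3.75 above the median of all values and 0.35 to 1.03 under it. The share of all genes over such a ratio was not counted, so nothing is read from this.

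**Figure D5:**
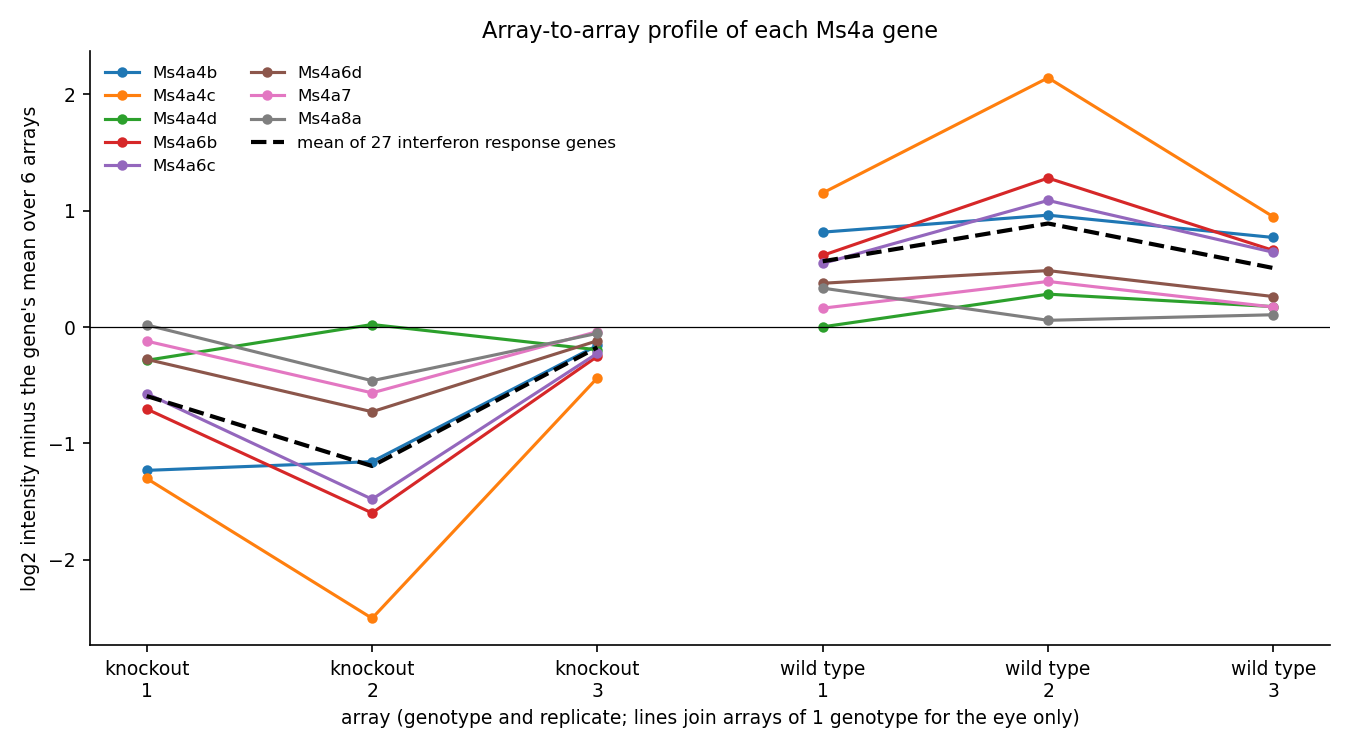
Log2 intensity minus the gene's mean over the 6 arrays for each of the 8 Ms4a genes (coloured) and the mean of 27 interferon response genes (dashed), by array. Knockout replicate 2 and wild-type replicate 2 hold the extremes of most lines, and Ms4a4c spans the widest range.

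The genes with the most similar profiles were found by the root-mean-square distance between the 6 centred log2 values, over 11279 other genes above the median of all values; this measure includes the gap between genotypes. For Ms4a4c the nearest were Ifit1bl1 (distance 0.12), Ifi213 (0.15) and Iigp1 (0.19). For Ms4a6b they were Tlr3 (0.09), Irf7 (0.10) and Ddx60 (0.13), and for Ms4a6c they were Ifi47 (0.08), Ddx60 (0.09) and Irf7 (0.09). Ms4a6d was nearest to Tent4a (0.03), Pnp (0.04) and Pnpt1 (0.05). Ms4a7 was nearest to Glrx (0.04), Macir (0.04) and Myd88 (0.05), and Ms4a8a to Wfs1 (0.05), Ccl3 (0.05) and Cacna1a (0.08). Ms4a4b and Ms4a4d, with means under the median, were not compared.

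Genes of proteins known to act with MS4A proteins showed no lower call. Of 7 measured, 1 was higher (2.85% of all genes were) and 0 were lower (2.05% were). The unadjusted p was under 0.05 in 2 higher genes and 0 lower genes. The higher one was Cd81, a tetraspanin that organises membrane proteins and whose place on this list is the least certain. Cd81 stood at 11.33 ± 0.16 in knockout against 10.76 ± 0.01 in wild type (SD, n = 3 each, difference 0.57, SE 0.09, limma adjusted p = 0.0191). It was not past the threshold without knockout replicate 1 (limma adjusted p = 0.0717) or wild-type replicate 2 (0.0726), and lay at the threshold without wild-type replicate 1 (0.05). Tnfrsf18, which encodes GITR, differed by 0.51 (SE 0.16, limma adjusted p = 0.111). Clec7a, the beta-glucan receptor Dectin-1 that partners human MS4A4A, differed by 0.12 (SE 0.07, limma adjusted p = 0.352), and the adaptor gene Tyrobp by 0.09 (SE 0.06, limma adjusted p = 0.459).

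Markers of other cells that the cultures could hold gave few calls, more of them in the fibroblast list than in any other. Over all genes, 2.05% were called lower and 2.85% higher. No share of all genes was counted for an unadjusted p under 0.05, so those counts stand without one. Among 6 measured monocyte markers limma called 0 (unadjusted p under 0.05 in 2 lower genes). Their mean level was 9.33 to 10.17 in knockout and 10.04 to 10.35 in wild type. Of 8 neutrophil markers limma called 0 as well (unadjusted p under 0.05 in 7 lower genes), with mean levels of 8.26 to 8.91 in knockout and 9.05 to 9.36 in wild type. Dendritic cell markers had 1 of 7 higher and 0 lower (levels 7.44 to 7.73 against 7.23 to 7.39; unadjusted p under 0.05 in 3 higher genes), and fibroblast markers had 3 of 7 lower and 0 higher (4.82 to 4.97 against 5.41 to 5.48; unadjusted in 6 lower genes). In the B cell list 0 of 7 were called (0 unadjusted), in the natural killer cell list 1 of 6 was higher (unadjusted in that 1 gene), in the mast cell and basophil list 1 of 8 was lower (unadjusted in 1 lower and 1 higher gene), and in the epithelial tumour list 0 of 6 were called by limma (unadjusted p under 0.05 in 1 lower gene). The part of these shifts in the Ms4a values was not tested.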

How the data were processed

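RNA of 6 cultures was labelled and hybridised as a 3' IVT assay, per the labels' protocols. The deposited values are log2 intensities, 1 per probe set and array; the scale was read from their range. The submitters' processing notes list RMA, GCRMA 2.30.0, affy 1.36.1 and limma 3.14.4. Whether RMA or GCRMA made the values is not settled by them, and these methods differ most in dim probe sets. The 3 arrays per genotype limit precision; array medians were 5.60 to 5.64, and no pair was identical.

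After removal of 64 controls, limma 3.58.1 (R 4.3.3; lmFit, eBayes, genotype as the single term, no filter) was fitted to 45037 probe sets, with Benjamini-Hochberg adjustment over all and a threshold of 0.05. It was tested on simulated data. Of the probe sets, 34945 had 1 gene symbol, 932 several and 9160 none. Symbols were updated through RefSeq, and the brightest probe set stood for its gene. Protein sequences were not analysed here. The members and lists were chosen with earlier results of these data known. Named genes were the 8 Ms4a genes, Fabp5, family genes past the threshold or among the 3 widest gaps, up to 4 by p from the interferon, neighbour and partner lists, and the 3 most similar profiles; Ms4a1, Ms4a2, Fcgr1 and Mertk were added after their values were seen. Replicate numbers were not used to pair the arrays in the main fit. Figures used matplotlib 3.10.9 in Python 3.11.15.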

Additional observations from a re-analysis of the deposited data

How the results depend on the processing

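Each of the 8 Ms4a genes kept its lower mean in knockout in every alternative that gave it a value; setting a floor at the 20th percentile (4.07) put all values of Ms4a4d on the floor and left it without one. Genes without overlap numbered 7 to 8 when single arrays were left out. Removing an array cannot make separate groups overlap, so this count could not fall below the 7 of the full data. For those 7 genes the lower mean without single arrays was fixed in the same way, and nothing is drawn from either. The median difference of -1.13 lay between -1.33 and -0.86 without single arrays. It was -0.72 with probe sets averaged per gene and -0.71 without probe sets whose suffix marks related transcripts, both of which bring in dimmer probe sets or drop Ms4a4c, and -1.52 with the floor, which drops Ms4a4d. With single arrays left out, the number of Ms4a genes past the threshold was 0 to 5, of interferon genes called lower 0 to 22, of family genes called higher 0 to 1, of locus neighbours 0 to 1 higher and 0 lower against 3 in the full fit, and of partner genes 0 to 1 higher.

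With the replicate block, in which the replicate number is a term, 0 of the 8 Ms4a genes were past the threshold, as were 0 family genes, 0 neighbours in either direction and 0 partner genes, with 1 interferon gene lower. Sample titles give same-numbered arrays a shared number and do not say whether they were handled together. Over all probe sets, deviations of same-numbered arrays correlated at -0.06, -0.04 and -0.13. Differently numbered arrays were not compared, so whether the numbers mark pairs was not settled. Trend and robust settings left 1 Ms4a gene, 7 interferon genes lower and 1 higher, and 3 neighbours higher. The floor left 2 Ms4a genes, 11 interferon genes and 0 family genes. Family genes called higher were 2 with median centring, with above-median probe sets only and with averaged probe sets; neighbours called higher were 2 with above-median probe sets only and 3 without the suffixed probe sets. With a log2 difference of at least 1 also required, 0 family genes, 0 neighbours in either direction and 0 partner genes remained past both limits. The cause of these changes was not tested. Fabp5 kept its call throughout, with differences of -6.10 to -6.23 without single arrays.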
